A study of Mus musculus with 21 samples.

Results

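Tetraspanins are small membrane proteins that span the bilayer several times and gather integrins, immunoglobulin-type receptors, proteases and signalling receptors into patches of the membrane. Some sit mainly at the cell surface, others in late endosomes and lysosomes, and several are enriched in extracellular vesicles and serve as their markers. In microglia, the resident macrophages of the brain, they are known for roles in adhesion, membrane traffic and antigen presentation. The 10 genes described here were chosen by name as the tetraspanins of microglia, not by a threshold on their values, though with earlier results of these data known: Cd53, Cd37, Cd9, Cd81, Cd82, Cd151, Cd63, Tspan3, Tspan4 and Tspan14. All 10 were found among the 18079 genes kept in the genotype table and among the 13297 genes of the injection table.

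The study measured RNA of microglia isolated from mouse brain as 3′ tags (QuantSeq), which count transcripts near their polyadenylated end, so that levels can be set beside each other between genes without a correction for length. The genotype table compares ApoE KO (n = 4, uninjected females of B6.129P2-Apoetm1Unc/J, which carry a disrupted Apoe gene in every cell) with WT (n = 7, uninjected C57BL/6 females), and so asks what differs in microglia of a brain without apolipoprotein E, its main lipid carrier. The injection table compares rAPOE (n = 5) with PBS (n = 5), all labelled as males of that same ApoE KO strain, with microglia collected 16 h after recombinant APOE protein in PBS, or PBS itself, was given into the left hemisphere. All mice were 12 to 18 weeks old. The controls of the injection thus also lack ApoE, both hemispheres were collected, and the labels do not say which of them a library represents. The knockout is of the whole animal, not of microglia alone. Whether each library is a mouse of its own is not stated, so p-values here measure the spread between libraries, which may be technical in part.

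Each ApoE KO library held 4247865 to 4969287 reads, against 2016972 to 3054976 in WT, and rAPOE libraries held 857059 to 1119059, against 704225 to 1347501 in PBS. Despite more reads, ApoE KO libraries detected fewer genes, 8117 to 10479, against 13592 to 15248 in WT. The part of this difference in the genes at 0 or lower in ApoE KO was not tested. Apoe tags were at 10.2, 0, 0 and 23.1 normalised counts in the ApoE KO libraries, against 1011 in WT library 8 and 13196 to 17163 in the other WT libraries; a tag at the 3′ end does not test the disrupted part of the gene. Microglial markers (10 genes such as Tmem119 and P2ry12) were all detected, and their summed level was 68438 to 80135 normalised counts in ApoE KO, against 51228 to 65313 in WT. Choroid plexus and ependymal markers differed far more between the genotypes: the 9 summed to 435 to 872 in ApoE KO libraries, against 23608 to 83211 in WT libraries, with Folr1, Sostdc1, Foxj1 and Ccdc153 at 0 in every ApoE KO library. Sums of other cell types overlapped with all libraries in, with library 8 lowest in WT. Astrocyte markers were at 511 to 1017 in ApoE KO and 897 to 1844 in WT, or 1462 to 1844 without library 8. Oligodendrocyte markers were at 92.5 to 282 and 190 to 634, or 550 to 634 without library 8. Endothelial markers were at 132 to 238 and 220 to 437, or 309 to 437 without library 8. Without that library, each of these sums was lower in all ApoE KO libraries than in all WT libraries. WT library 8 stood apart from the rest of its group, with the lowest choroid plexus sum and the lowest level of 8 of the 10 tetraspanins. It also held 0 Y-linked reads, as the ApoE KO libraries did, while the other 6 WT libraries held 11 to 36 although they are labelled female. rAPOE library 5 and PBS library 5 held 0 Y-linked reads and 924 and 1521 reads of Xist although they are labelled male. Xist was at 1127 to 1279 normalised counts in those 6 WT libraries, against 3291 in WT library 8 and 1980 to 3292 in ApoE KO. Results are therefore given with and without WT library 8 and the libraries numbered 5 where they matter. No fit left out the other 6 WT libraries together.

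Cd53, Cd37, Cd63 and Cd81 carry the main contrasts described here, so the 300 bases around their RefSeq transcription starts (mostly upstream of the start, build GRCm38.p6, read along the gene's own strand) are shown. All 10 genes were matched in that table. Capitals mark a match to GAGGAAG or its reverse complement, the core letters bound by PU.1, the factor that specifies macrophages and microglia.
Cd53 promoter (chr3:106790100-106790399, minus strand): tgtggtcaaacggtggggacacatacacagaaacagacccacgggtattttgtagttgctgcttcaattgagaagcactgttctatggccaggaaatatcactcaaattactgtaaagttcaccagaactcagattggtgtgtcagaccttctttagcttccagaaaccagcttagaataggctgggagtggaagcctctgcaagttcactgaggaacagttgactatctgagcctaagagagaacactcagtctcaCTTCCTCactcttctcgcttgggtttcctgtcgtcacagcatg
Cd37 promoter (chr7:45238790-45239089, minus strand): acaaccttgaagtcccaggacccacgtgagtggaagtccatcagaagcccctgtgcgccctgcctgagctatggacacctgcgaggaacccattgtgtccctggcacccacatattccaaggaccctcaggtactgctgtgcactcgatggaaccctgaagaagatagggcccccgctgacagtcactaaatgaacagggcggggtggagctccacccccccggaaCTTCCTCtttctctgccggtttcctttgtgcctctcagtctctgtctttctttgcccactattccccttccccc
Cd63 promoter (chr10:128909095-128909394, plus strand): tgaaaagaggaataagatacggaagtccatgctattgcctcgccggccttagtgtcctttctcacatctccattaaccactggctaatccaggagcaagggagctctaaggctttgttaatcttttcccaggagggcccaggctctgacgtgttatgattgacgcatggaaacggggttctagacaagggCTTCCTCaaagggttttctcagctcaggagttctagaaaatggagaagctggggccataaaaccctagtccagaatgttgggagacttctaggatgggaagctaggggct
Cd81 promoter (chr7:143052500-143052799, plus strand): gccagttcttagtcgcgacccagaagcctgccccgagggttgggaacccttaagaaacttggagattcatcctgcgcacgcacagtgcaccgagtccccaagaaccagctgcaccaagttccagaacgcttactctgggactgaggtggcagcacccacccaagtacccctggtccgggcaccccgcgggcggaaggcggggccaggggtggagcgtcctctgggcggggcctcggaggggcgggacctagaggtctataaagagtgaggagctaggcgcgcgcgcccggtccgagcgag

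These capitals stand 8 bases after the start of Cd53, 24 before that of Cd37 and 60 before that of Cd63, in each case on the strand opposite to the gene. Cd81 has no match in its window. Counting every RefSeq start of a gene, 5 of the 10 tetraspanins hold the letters (Cd53, Cd37, Cd82, Cd63 and Tspan14), against 15.4% of all 27025 genes in the table, both strands searched. The longer CLEAR box GTCACGTG, found near lysosomal genes and recognised by Tfeb, occurred in 0 of the 10, against 2.55% of all genes. A match of letters in such a window is a description and not a binding site.

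In ApoE KO microglia 5 of the 10 tetraspanins rose and 0 fell. The surface tetraspanins Cd53 and Cd81 rose most, to 2.73 and 2.07 times the WT mean, followed by Tspan4, Tspan14 and, less firmly, Cd37. Cd63, the tetraspanin of late endosomes and lysosomes, had a mean in ApoE KO that was 0.510 of its WT mean, which was the highest of the 10, but it did not pass with all libraries in the fit. Among all 10401 genes tested 25.0% passed, 5.14% as higher in ApoE KO and 19.8% as lower, at a Benjamini-Hochberg adjusted p under 0.05 in limma on log2(normalised count + 1). The median log2 difference of the 10 was 0.57, beside -0.45 for all genes tested and 0.10 for the 572 genes with a mean of at least 500. Of those 572 genes 142 rose and 74 fell, while 3 of the 5 tetraspanins at that level rose. The 5142 genes with a mean of 50 to 500 had a median of -0.18, and 361 rose and 769 fell. Of the 5 tetraspanins with such a mean 2 rose. edgeR on the recovered reads gave the same counts, 5 higher and 0 lower. In these bulk samples, fewer cells of a type and less RNA per cell cannot be told apart, and the part of the other cell types in each difference was not tested unless a value is given.

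**Figure D1:**
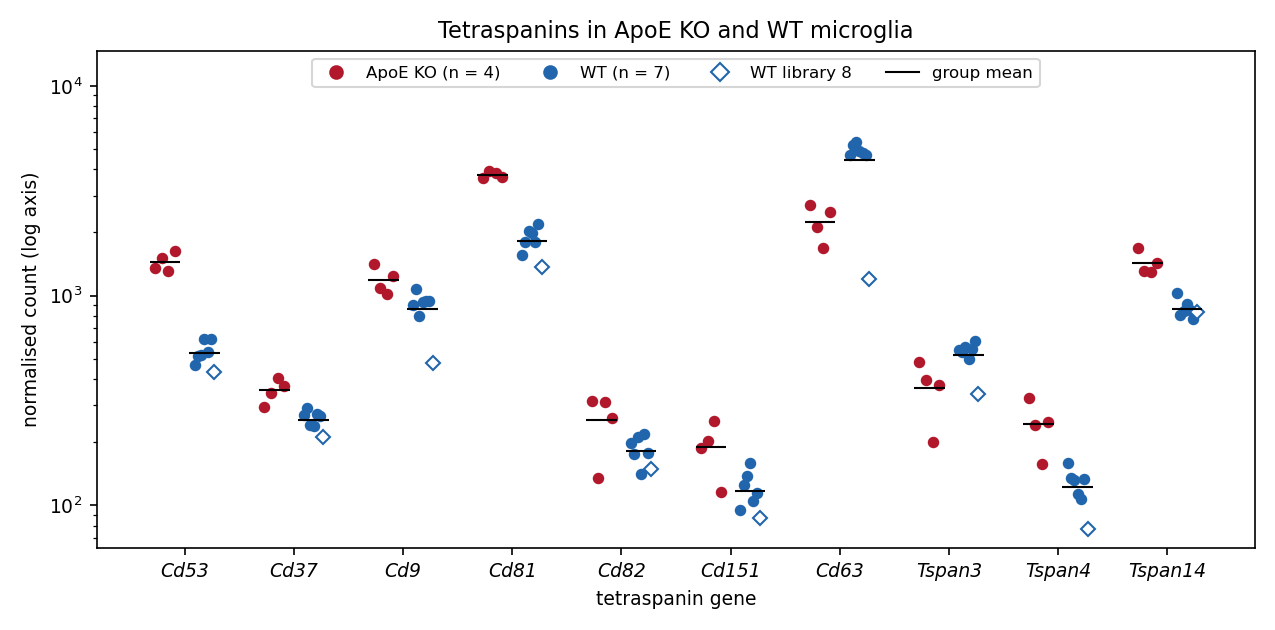
Normalised count (log axis) of each of the 10 tetraspanins in every ApoE KO library (red, n = 4) and WT library (blue, n = 7), with group means as lines and WT library 8 as an open diamond. The groups do not overlap for Cd53, Cd37, Cd81 and Tspan14, and WT library 8 lies apart from the other WT libraries for Cd63 and Tspan3. The share of all genes without overlap was not computed, so this count of genes is a description only.

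Cd53 (chromosome 3, 106759921 to 106790149, GRCm38, minus strand) is a tetraspanin of leukocytes, which lines the plasma membrane of myeloid and lymphoid cells. Its level was 1349, 1503, 1314 and 1633 normalised counts in the ApoE KO libraries, against 433, 524 and 621 (lowest, median and highest) in the WT libraries. All ApoE KO libraries were above all WT libraries, and the gap between the lowest ApoE KO library (1314) and the highest WT library (621) was larger than either SD (147 in ApoE KO, 70.6 in WT). The log2 difference was 1.45 (SE 0.13, adjusted p = 5.4e-06 in limma). Cd53 passed under all 20 alternative settings, at log2 differences of 1.02 to 1.498.

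Cd37 is likewise a leukocyte tetraspanin, known for its part in antigen presentation and B cell function. It had 295, 345, 403 and 372 normalised counts in ApoE KO, against 211, 266 and 292 in WT as lowest, median and highest. The groups do not overlap, but only just. Its log2 difference was 0.46 (SE 0.15, adjusted p = 0.0370 in limma), beside 1.45 for Cd53. The call held under 7 of the 20 alternatives. It was lost when ApoE KO library 2, 3 or 4 or WT library 1, 3, 4, 6 or 7 was left out, at adjusted p from 0.0546 to 0.0962 in limma. The last 500 bases of Cd37 on chromosome 7 overlap an exon of Tead2 on the opposite strand, and the strand setting of the counting is not given. Tead2 itself was listed at 0 to 18.6 in ApoE KO and at 0 to 4.63 in WT.

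B cells also express Cd37 and Cd53. The sum of the 5 B cell markers was 27.2 to 73.5 normalised counts in ApoE KO, against 30.7 to 139 in WT, or 72.4 to 139 without library 8. Of these, Cd79a, Ms4a1 and Pax5 were at 0 in every ApoE KO library, while Cd79b averaged 44.0 in ApoE KO and 31.5 in WT (log2 difference 0.40, SE 0.44, adjusted p = 0.531 in limma). The part of B cells in the Cd53 and Cd37 results was not tested. Neutrophils express both genes as well. Their 8 markers summed to 1575 to 6216 in ApoE KO, against 182 to 2718 in WT, or 2045 to 2718 without library 8. Of the 7 tested, 0 were higher and 1 lower, and the part of neutrophils in the result was not tested. Monocyte and other macrophage markers summed to 102 to 324 in ApoE KO, against 159 to 1473 in WT. The lowest WT sum is library 8, and the other WT libraries, at 1295 to 1473, were above all ApoE KO libraries.

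Cd81 and Cd9 are close relatives that share partners of the immunoglobulin superfamily, Ptgfrn and Igsf8, and in mouse restrain the fusion of macrophages into giant cells. Cd81 (chromosome 7, 143052739 to 143067934, GRCm38, plus strand) had 3653, 3925, 3836 and 3675 normalised counts in ApoE KO, against 1376, 1807 and 2199 in WT. The coefficient of variation (SD over mean) of the ApoE KO libraries was 3.46%, the lowest of the 10 genes there, and none overlapped WT. The log2 difference was 1.06 (SE 0.14, adjusted p = 6.0e-05 in limma), and Cd81 passed under all 20 alternatives at 0.63 to 1.11.

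Cd9 had 1409, 1089, 1020 and 1238 normalised counts in ApoE KO, against 477, 933 and 1078 in WT. Here 3 of the 4 ApoE KO libraries lay above all WT libraries, and the ranges overlapped. The log2 difference of 0.48 (SE 0.19) did not pass (adjusted p = 0.0870 in limma). Without WT library 8, the lowest at 477, it was 0.34 (SE 0.11) and passed (adjusted p = 0.0270). Transcripts of the pseudogene Cd9-ps could share tags with Cd9, and the handling of such tags is not given.

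Cd82, which acts in adhesion and cell movement and was named as a suppressor of metastasis, had 314, 135, 312 and 262 normalised counts in ApoE KO, against 141, 179 and 220 in WT. ApoE KO library 2 was below every WT library and the other 3 were above them. The log2 difference of 0.43 (SE 0.24) did not pass (adjusted p = 0.208 in limma), though without ApoE KO library 2 it was 0.71 and passed (adjusted p = 0.0173).

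Cd151, the partner of laminin-binding integrins, had 188, 203, 253 and 116 normalised counts in ApoE KO, against 86.7, 114 and 160 in WT. ApoE KO library 4 fell within the WT range and the other 3 lay above it. Its log2 difference of 0.66 (SE 0.25) did not pass (adjusted p = 0.0662 in limma), but passed without ApoE KO library 4 (0.88, adjusted p = 0.0163).

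Cd63 (chromosome 10, 128900989 to 128912822, GRCm38, plus strand) cycles between late endosomes, lysosomes and the cell surface and is a widely used marker of extracellular vesicles. Its level was 2702, 2120, 1683 and 2501 normalised counts in ApoE KO, against 1201, 4807 and 5402 in WT as lowest, median and highest. The lowest WT value belongs to library 8 and is below all ApoE KO libraries, while the other 6 WT libraries, at 4680 to 5402, were above all of them. With all libraries the log2 difference was -0.87 (SE 0.34) and did not pass (adjusted p = 0.0801 in limma). Without WT library 8 it was -1.16 (SE 0.11, adjusted p = 6.4e-06), with 2251 ± 449 in ApoE KO (SD, n = 4) and 4950 ± 294 in WT (SD, n = 6). The choroid plexus and ependymal sum moved the same way, at 435 to 872 in ApoE KO, 23608 in WT library 8 and 57116 to 83211 in the other WT libraries, and its part in the Cd63 result was not tested. A pseudogene, Cd63-ps, is annotated as well.

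Tspan3, a broadly expressed tetraspanin, showed a like arrangement at a lower level. It had 484, 395, 201 and 374 normalised counts in ApoE KO, against 339, 553 and 610 in WT. Library 8 was again the lowest WT library, and without it the WT range of 497 to 610 lay above all ApoE KO libraries. Its log2 difference of -0.57 (SE 0.22) did not pass (adjusted p = 0.0774 in limma). Without WT library 8 it was -0.67 (SE 0.20) and passed (adjusted p = 0.0207). It also passed without ApoE KO library 1 (-0.73, adjusted p = 0.0363).

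Without WT library 8 the count of tetraspanins that passed was 8 in place of 5: Cd9 joined those that rose, making 6, and Cd63 and Tspan3 fell. In that fit 30.6% of 10352 genes passed, 7.64% as higher and 23.0% as lower. The fits with and without library 8 share their other libraries, so the second is not independent support for the first. Without library 8, each WT library left held Y-linked reads, and each ApoE KO library held 0. Genotype and Y-linked reads therefore cannot be told apart in that fit.

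**Figure D2:**
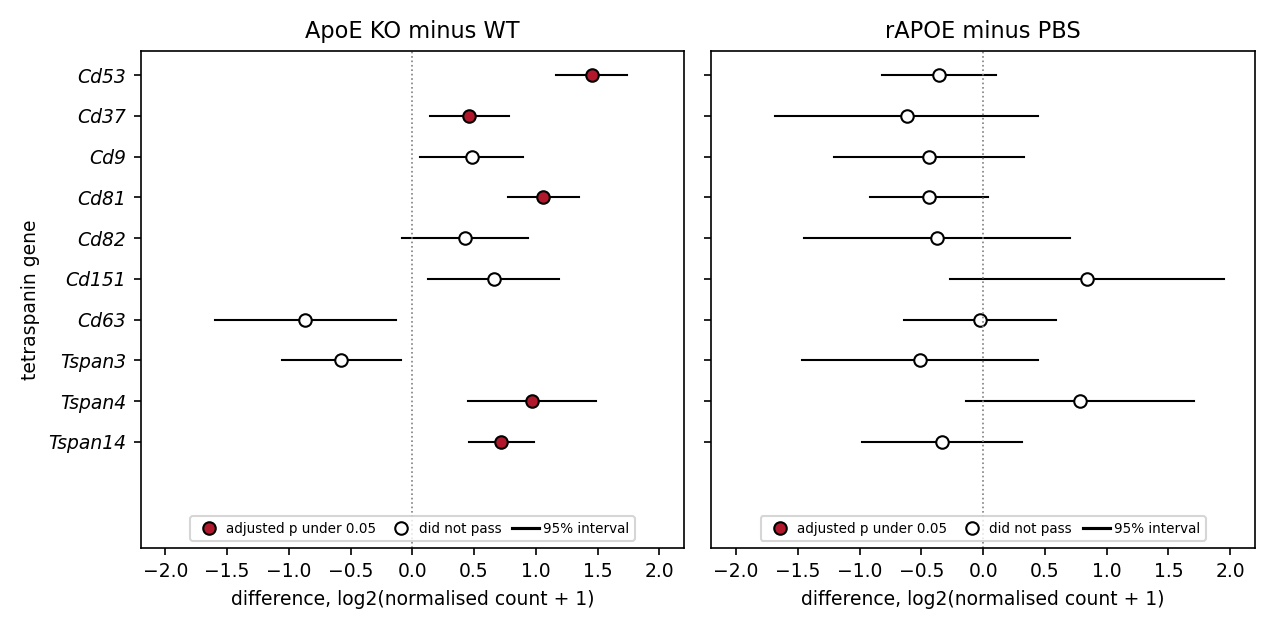
Difference in log2(normalised count + 1) of each tetraspanin, ApoE KO minus WT on the left and rAPOE minus PBS on the right, with 95% intervals from limma and filled points for adjusted p under 0.05. On the left 5 genes passed, all above 0, with Cd63 at -0.87 the lowest; on the right 0 passed.

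Tspan14 (chromosome 14, 40906445 to 40966807, GRCm38, minus strand) belongs to the TspanC8 group, which binds the metalloprotease Adam10 and brings it to the cell surface. It had 1690, 1311, 1298 and 1428 normalised counts in ApoE KO, against 771, 849 and 1032 in WT. The groups do not overlap, and WT library 8, at 834, lay inside the WT range here. On the log2 scale it rose by 0.72 (SE 0.12, adjusted p = 0.00066 in limma), and Tspan14 passed under 19 of 20 alternatives. Adam10 itself had 364 ± 68.7 in ApoE KO (SD, n = 4) and 285 ± 141 in WT (SD, n = 7), with a log2 difference of 0.44 (SE 0.27, adjusted p = 0.245 in limma). WT library 8 held the highest Adam10 value, 599, and without it WT averaged 232 ± 28.8 (SD, n = 6), below all ApoE KO libraries.

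Tspan4 (chromosome 7, 141475240 to 141493427, GRCm38, plus strand), known from migrasomes, the vesicles that migrating cells leave on their retraction fibres, had 326, 242, 157 and 249 normalised counts in ApoE KO, against 77.6, 132 and 159 in WT. Only ApoE KO library 3 fell within the WT range. It rose by 0.97 on the log2 scale (SE 0.24, adjusted p = 0.0092 in limma), and it passed under 18 of 20 alternatives. The last 500 bases of Tspan4 overlap an exon of Chid1 on the opposite strand, which had 72.2 ± 24.1 in ApoE KO (SD, n = 4) and 93.9 ± 19.4 in WT (SD, n = 7). Cd151 and Tspan4 lie 3.77 kb apart on chromosome 7.

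Of the 10 microglial markers 5 rose in ApoE KO, such as Tmem119 (1.23 on the log2 scale), and the others did not pass, with Csf1r at -0.22 and Aif1 at 0.0014. When libraries were scaled to those markers, a choice made after seeing the data, the median of all genes shifted by -0.41. Cd53 (1.02) and Cd81 (0.63) still passed as higher, Tspan14 (0.29, adjusted p = 0.104), Tspan4 (0.53, adjusted p = 0.124) and Cd37 (0.03, adjusted p = 0.922) did not, and Cd63 (-1.30, adjusted p = 0.0157) and Tspan3 (-1.01, adjusted p = 0.0051) passed as lower in limma. Cd82 changed sign there, to -0.0046. Quantile rescaling shifted the median of all genes by 0.54 and turned the split of calls to 920 higher and 1027 lower, from 535 and 2061, yet it changed no tetraspanin's direction.

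Together the 10 genes made up 0.509 to 0.542% of all normalised counts in ApoE KO libraries, against 0.142 to 0.445% in WT libraries, or 0.415 to 0.445% in WT without library 8. The order of the genes differed. In ApoE KO, Cd81 (32.8% of the 10 genes' sum) and Cd63 (19.6%) led in all 4 libraries, followed by Cd53 (1450 ± 147, SD, n = 4) and Tspan14 (1432 ± 182), whose ranges overlap, and then Cd9. In WT, Cd63 (45.5%) stood first in 6 of 7 libraries, Cd81 (18.8%) second on average, and Cd9 (868 ± 191, SD, n = 7) and Tspan14 (866 ± 85.0) had overlapping ranges. Cd53 (531 ± 70.6) and Tspan3 (523 ± 88.0) were the next pair in WT and overlapped as well. Cd82, Tspan4 and Cd151 were at the low end of both groups, with overlapping ranges between neighbours.

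A ratio of a pair of genes within a library does not depend on how libraries were scaled. The log2 ratio of Cd63 to Cd81 was -0.77 ± 0.34 in ApoE KO (SD, n = 4) and 1.16 ± 0.62 in WT (SD, n = 7), and every ApoE KO library, at -1.19 to -0.44, was below every WT library, at -0.20 to 1.58. WT library 8 was the WT library at -0.20, and the other 6 were at 1.10 or above. Cd37 relative to Cd53 was -2.04 ± 0.22 in ApoE KO and -1.05 ± 0.21 in WT, again without overlap, so within libraries Cd37 was lower relative to Cd53 in ApoE KO.

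Cd53 relative to Cd81 was -1.38 ± 0.16 in ApoE KO and -1.78 ± 0.10 in WT, with all ApoE KO libraries higher. Tspan14 relative to Tspan3 was 2.04 ± 0.44 in ApoE KO and 0.74 ± 0.31 in WT, with all ApoE KO libraries higher. For Cd9 relative to Cd81 the ranges overlapped, at -1.68 ± 0.25 in ApoE KO and -1.10 ± 0.29 in WT. No test was applied to these ratios.

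**Figure D3:**
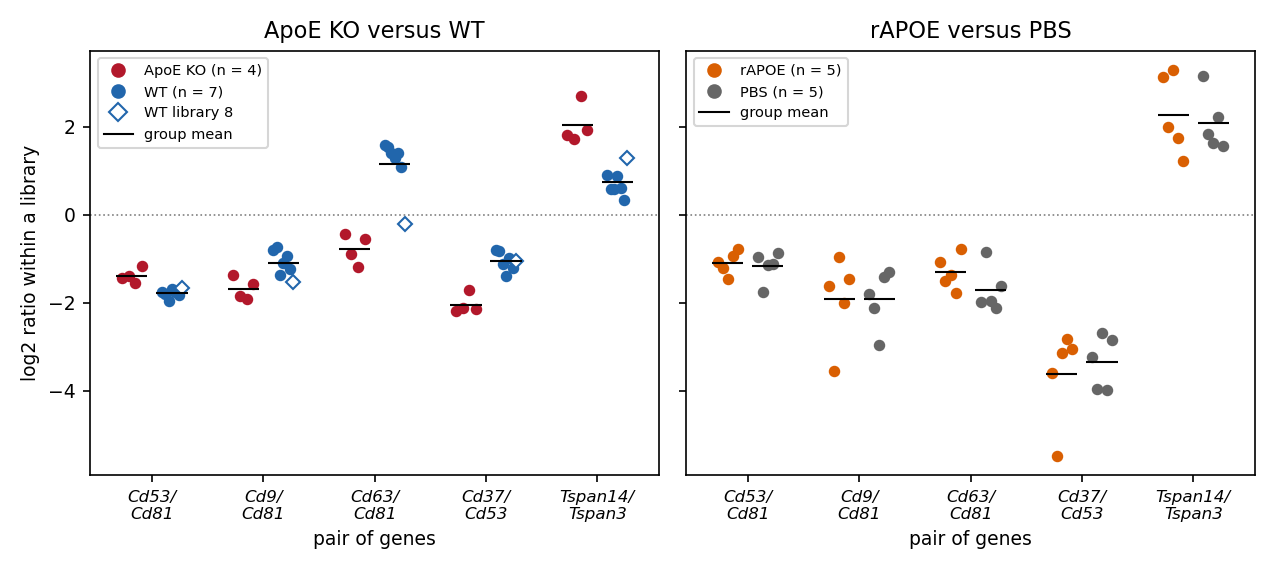
Log2 ratio of pairs of tetraspanins within each library, ApoE KO beside WT on the left and rAPOE beside PBS on the right, with group means as lines and WT library 8 as an open diamond. Cd63/Cd81 lies below 0 in all 4 ApoE KO libraries and in WT library 8, and above 0 in the other 6 WT libraries, while all 5 ratios overlap between rAPOE and PBS.

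Among all 5714 genes with a mean of at least 50, the profiles nearest to each tetraspanin that passed were found from the root-mean-square difference of centred log2 levels over the 11 libraries. Those nearest to Cd53 were Fam91a1 (0.18), Ciao1 (0.21) and Cd81 (0.22). Nearest to Cd81 were Slco2b1 (0.13), a carrier of organic anions, Fcer1g (0.14), the signalling chain of Fc receptors, and Rnf19b (0.16). Tspan14 lay nearest to Il21r, Spata13 and C1qc (0.13 each), the last a chain of complement C1q. The genes nearest to Cd37 were Fuca2 (0.13), Riox1 (0.13) and Alox5ap (0.14), a protein of leukotriene synthesis, and those nearest to Tspan4 were Itpripl1 (0.18), Dcaf12 (0.23) and Slc15a4 (0.23). The closest of the other 9 tetraspanins ranked 3 among all genes for Cd53 (Cd81), 13 for Cd81 (Cd53), 39 for Tspan4 (Tspan14), 202 for Tspan14 (Cd37) and 257 for Cd37 (Tspan14). These likenesses include the difference between the genotypes and are given as a description.

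Of 23 other tetraspanins, 18 were in the genotype table and 11 were high enough to test, of which 1 rose and 3 fell, beside 5.14% and 19.8% of all genes tested. A count of 3 lower among 11 is near that general share. Tspan13 had 254, 440, 613 and 470 normalised counts in ApoE KO, against 205, 266 and 292 in WT, and rose by 0.70 on the log2 scale (SE 0.21, adjusted p = 0.0244 in limma). Without ApoE KO library 3 its difference was 0.52 (adjusted p = 0.0797), and its call was likewise lost without ApoE KO library 2 (adjusted p = 0.0510) or 4 (adjusted p = 0.0619) and without WT library 1 (adjusted p = 0.0504).

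Those that fell were low in the microglia of either group. Tspan17, of the same Adam10-binding group as Tspan14, was at 0 in 3 ApoE KO libraries and at 3.55 in the other, against 1.81, 18.02 and 31.6 in WT (log2 difference -3.50, SE 0.76, adjusted p = 0.0039 in limma). Rom1, a protein of photoreceptor disc rims, had 0, 4.01, 0 and 7.09 in ApoE KO, against 16.3, 35.9 and 45.9 in WT (log2 difference -3.54, SE 0.72, adjusted p = 0.0024 in limma, 0.0503 in edgeR). Tspan5, a further member of the Adam10-binding group, had 52.2, 11.1, 15.1 and 22.2 in ApoE KO, against 25.3, 59.1 and 81.6 in WT. Its log2 difference of -1.37 (SE 0.48, adjusted p = 0.0490 in limma) held under 6 of 19 alternatives and, with 1 library left out, only when that was ApoE KO library 1 or WT library 8. Quantile rescaling ended the calls of all 3. Neuronal markers moved with them, at a sum of 0 to 89.5 in ApoE KO, against 57.8 to 1067 in WT, or 801 to 1067 without library 8. Of the 8 neuronal markers 6 fell, and their part in these results was not tested.

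Of 30 genes for proteins that tetraspanins bind or travel with, 26 were tested, 4 rose and 9 fell in ApoE KO, beside 5.14% and 19.8% of all genes tested. Fcer1g had 2482, 2199, 2398 and 2686 normalised counts in ApoE KO, against 1016, 1353 and 1529 in WT, without overlap (log2 difference 0.91, SE 0.13, adjusted p = 0.00015 in limma). Icam1, the adhesion molecule that CD9 and CD151 cluster on human endothelium, rose by 1.06 on the log2 scale (SE 0.26, adjusted p = 0.0087 in limma). Vcam1, another adhesion molecule of the list, went the other way (log2 difference -1.24, SE 0.34, adjusted p = 0.0145 in limma). Hbegf, the growth factor whose membrane form binds CD9 in human cells, was at 3.97, 26.3, 6.48 and 8.87 in ApoE KO, against 56.0, 240 and 263 in WT, the lowest being library 8 (log2 difference -4.26, SE 0.51, adjusted p = 3.3e-05 in limma).

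The scavenger receptor Cd36 and the integrin chain Itga4 were at 0 in 3 of the 4 ApoE KO libraries, with 20.4 and 12.0 in the remaining one. Cd36 had 7.22, 57.9 and 79.7 in WT as lowest, median and highest (log2 difference -4.52, SE 0.92, adjusted p = 0.0026 in limma, 0.0900 in edgeR), and Itga4 had 16.2, 38.5 and 59.1 there (-4.23, SE 0.77, adjusted p = 0.0011 in limma, 0.0742 in edgeR). H2-Aa, a class II chain that meets tetraspanins in endosomes, had 43.1, 36.5, 32.4 and 66.9 in ApoE KO, against 28.9, 423 and 546 in WT. Its log2 difference was -2.72 (SE 0.63, adjusted p = 0.0057 in limma), and the lowest WT value is library 8. Class II and Cd36 are also expressed by the monocytes and other macrophages whose markers are given above with B cell markers, and the part of those cells was not tested. The direct partners of Cd9 and Cd81, Ptgfrn and Igsf8, did not pass.

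**Figure D4:**
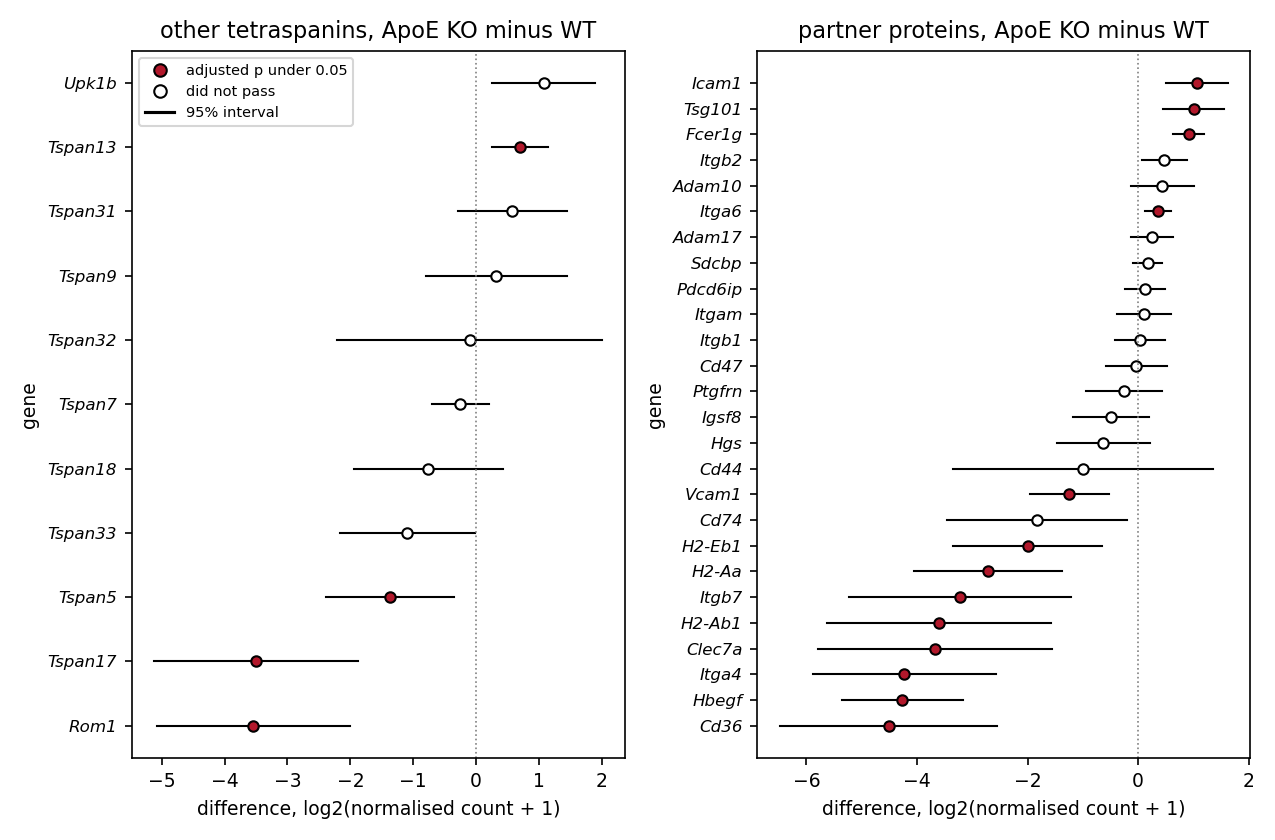
Difference in log2(normalised count + 1), ApoE KO minus WT, of the 11 other tetraspanins tested on the left and the 26 partner genes tested on the right, with 95% intervals from limma and filled points for adjusted p under 0.05. Filled points lie on both sides of 0, from Icam1 at 1.06 to Cd36 at -4.52, and Ptgfrn, Igsf8 and Adam10 are open.

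After injection of rAPOE into ApoE KO brains, 0 of the 10 tetraspanins passed against PBS, in limma or in edgeR, and 0 had an unadjusted p under 0.05. Of all 7066 genes tested 0.481% passed and 11.2% had an unadjusted p under 0.05. The estimates were negative for 8 tetraspanins and positive for Cd151 and Tspan4, and in each case the groups overlapped. How many of all genes overlapped was not computed here either. The smallest adjusted p was 0.493, for Cd81. A p that misses the threshold does not show that the groups were alike, so the intervals are given with the values.

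Cd81 had 1246, 1445, 1373, 904 and 680 normalised counts after rAPOE, against 1589, 1704, 1541, 1313 and 1255 after PBS. rAPOE libraries 2 and 3 lay inside the PBS range, and the other 3 lay below it, library 1 by little. Its log2 difference was -0.44 (95% interval -0.91 to 0.04). Cd53 had 597, 625.5, 503, 474 and 400 after rAPOE, against 818, 508, 704, 609 and 692 after PBS. For Cd53, 3 rAPOE libraries lay below all PBS libraries, and its log2 difference was -0.36 (95% interval -0.82 to 0.10).

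Cd151 had 56.6, 69.6, 114, 52.0 and 18.7 normalised counts after rAPOE, against 39.7, 20.2, 32.0, 29.0 and 30.2 after PBS. In 4 rAPOE libraries it was above all PBS libraries, and in rAPOE library 5 below them. Its log2 difference was 0.84 (95% interval -0.27 to 1.95, adjusted p = 0.587 in limma). Tspan4 had 107, 66.6, 64.2, 101 and 56.7 after rAPOE, against 70.3, 63.2, 20.8, 56.0 and 31.5 after PBS. The highest 2 rAPOE libraries were above all PBS libraries, and the log2 difference was 0.78 (95% interval -0.14 to 1.71, adjusted p = 0.528 in limma). These are low values, resting on 24 to 114 reads of Cd151 per rAPOE library and 16 to 48 per PBS library.

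Cd63 had 595, 514, 534, 266 and 397 normalised counts after rAPOE, against 401, 957, 397, 301 and 410 after PBS. PBS library 2, at 957, stood above all others, and the remaining values interleaved. Its log2 difference was -0.02 (95% interval -0.64 to 0.59). Cd9 ranged from 124 to 708 after rAPOE and from 199.99 to 514 after PBS, with a log2 difference of -0.44 (95% interval -1.20 to 0.33). Tspan14 ranged from 117 to 371 after rAPOE and from 188 to 318 after PBS, at -0.33 (95% interval -0.98 to 0.32).

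The other 3 genes were low. Cd37 ranged from 14.1 to 66.7 after rAPOE and from 32.9 to 109 after PBS, at a log2 difference of -0.62 (95% interval -1.68 to 0.45). Tspan3 ranged from 23.1 to 54.5 after rAPOE and from 35.6 to 91.2 after PBS, at -0.51 (95% interval -1.47 to 0.45). Cd82 ranged from 22.5 to 101 after rAPOE and from 27.8 to 87.5 after PBS, at -0.38 (95% interval -1.45 to 0.70).

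**Figure D5:**
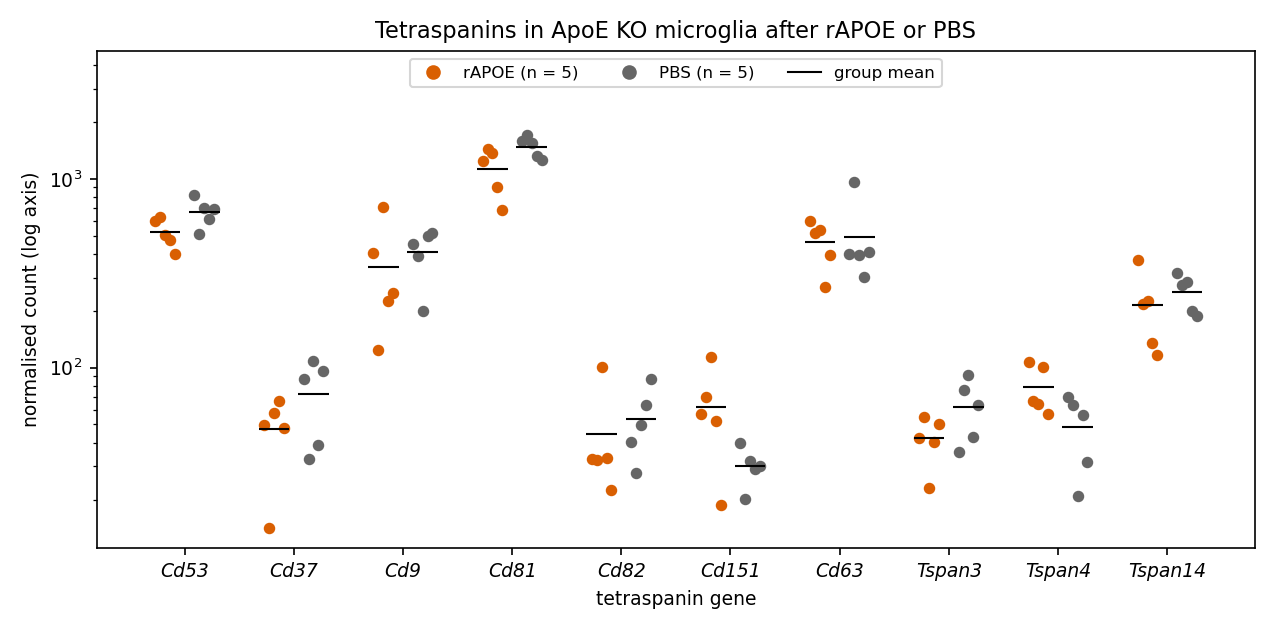
Normalised count (log axis) of each tetraspanin in every rAPOE library (orange, n = 5) and PBS library (grey, n = 5), with group means as lines. The groups overlap for all 10 genes, and rAPOE library 3 for Cd82 (101) and PBS library 2 for Cd63 (957) lie apart from their groups.

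Microglial markers summed to 10846 to 22324 after rAPOE, against 20136 to 24483 after PBS, with 2 of 10 lower. Scaling to these markers, again chosen after seeing the data, shifted the median of all genes by 0.55 and left 0 tetraspanins passing. Since it moves all genes alike, estimates a little below 0 become positive by its construction, such as Cd81 at 0.16 and Cd63 at 0.57. Leaving out both libraries numbered 5 gave 0 passing as well, with Cd81 at -0.32 and Cd151 at 1.22.

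By group mean, the order of levels was the same for the leading 5 genes in each injection group: Cd81, Cd53, Cd63, Cd9 and Tspan14. Within libraries, Cd63 was above Cd9 in 4 of 5 after rAPOE but in only 2 of 5 after PBS. Cd81 made up 38.4% of the 10 genes' sum after rAPOE and 41.5% after PBS and led in all 5 libraries of each group, without overlap with Cd53. The ranges of Cd53, Cd63 and Cd9 overlapped between neighbours in each group. The log2 ratio of Cd63 to Cd81 was -1.29 ± 0.38 after rAPOE (SD, n = 5) and -1.70 ± 0.52 after PBS (SD, n = 5), below 0 in all 10 libraries. Together the 10 genes made up 0.246 to 0.383% of all normalised counts after rAPOE and 0.304 to 0.406% after PBS. Of the 23 other tetraspanins 4 could be tested and 0 passed, and of 30 partners 21 were tested and 0 passed in limma or edgeR, with 4 at an unadjusted p under 0.05.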

How the data were processed

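The 10 tetraspanins, the gene lists and the alternatives were chosen with earlier results of these data known. The labels' protocols name QuantSeq 3′ FWD libraries and a MiniSeq. The submitters' processing notes list the GRCm38.p3 build, R 3.2.3, Picard 1.8.4, HTSeq and DESeq2 without saying what each did. The aligner is not given in the sources used here, nor is the strand setting.

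A signal per gene was deposited, the normalised count of the text, made by the authors from read counts and 1 factor per library. In each library 100% of values above 0 were whole multiples of a step within 0.01, so reads were recovered. Both tables were normalised apart, and no test spans them. Left out of the genotype table were 22 entries named by dates (0.0966% of the values) and 120 at 0.

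Genes with a mean of at least 10 were fitted as log2(normalised count + 1) with limma 3.58.1 in R 4.3.3 (intensity trend, no covariates), with Benjamini-Hochberg adjustment over all genes tested. On this scale the differences of low genes could be larger or smaller than in edgeR. Cd36 was at -4.52 in limma and -3.49 in edgeR, and Tspan17 at -3.50 and -4.24. edgeR 4.0.16 was run on recovered reads, which carry no molecular identifiers. Fits were tested on simulated data. Genes named are the 10, other tetraspanins that passed, up to 6 passing partners by adjusted p, the 3 nearest profiles of each passing tetraspanin, and genes given as context. Gene positions are from GENCODE and promoters from RefSeq, both for GRCm38. Replicate numbers are not stated to pair the samples, and the main fits did not use them.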

Additional observations from a re-analysis of the deposited data

Results flagged for a closer look

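Among 40 sets of values (10 tetraspanins in 4 groups), 4 held a library far from the others of its group by Dixon's criterion, which chance meets in about 1 of 20 such sets. Cd63 in WT library 8 was 1201 normalised counts, while the other 6 WT libraries had 4680 to 5402. Tspan3 in the same library was 339, while the others had 497 to 610. Cd82 in rAPOE library 3 was 101, while the other rAPOE libraries had 22.5 to 33.4. Cd63 in PBS library 2 was 957, while the other PBS libraries had 301 to 410. Without WT library 8, Cd63 and Tspan3 both passed as lower in ApoE KO. Without rAPOE library 3 or PBS library 2, 0 tetraspanins passed in the injection comparison.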

How the results depend on the processing

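For ApoE KO against WT, 5 tetraspanins passed, and 4 to 8 passed when each library was left out in turn. The highest count, 8 (6 higher and 2 lower), came without WT library 8. The other alternatives gave 4 or 5: pseudocounts of 0.5 and 5, no filter, a mean of at least 50, TMM and quantile rescaling, edgeR, and microglia marker scaling, which was added after seeing the data. Cd53 and Cd81 passed in all 20 alternatives, Tspan14 in 19, Tspan4 in 18, Cd37 in 7, Cd63 in 4, Tspan3 in 3, and Cd9, Cd82 and Cd151 in 1 each. The cause of these changes was not tested. Over all genes, 535 higher and 2061 lower calls became 498 and 1159 in edgeR, 488 and 801 at a mean of at least 50, and 126 and 3569 under marker scaling.

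With the replicate number as a block, 4 passed: Cd53, Cd81 and Tspan14 higher, and Cd63 lower at -1.19 (adjusted p = 0.0021 in limma). The block lost Cd37 and Tspan4, and called 374 genes higher and 1449 lower in all. The labels do not state that numbers pair the samples. Correlations of same-numbered libraries ran from -0.027 to 0.045 for the genotypes and from -0.0051 to 0.425 for the injection. rAPOE libraries 4 (0.425) and 5 (0.284) each correlated most with the PBS library of the same number. Libraries 4 and 5 detected 11342 and 11026 genes after rAPOE and 11232 and 10025 after PBS. The other injection libraries detected 7601 to 8837. What else libraries of the same number share was not tested. For rAPOE against PBS, 0 tetraspanins passed under each alternative, the block among them. Over all genes, 26 higher and 8 lower calls became 23 and 1 in edgeR, 131 and 1 under marker scaling, 35 and 17 with the block, 45 and 22 under quantile rescaling, 47 and 17 at a pseudocount of 5, and 10 and 1 without both libraries numbered 5. Depth limits the injection table, where Tspan4 rested on as few as 13 reads in a library and Cd37 on 14.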
